A study of Mus musculus with 2 samples.

Results

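The tyrosine and dual-specificity phosphatases of inflammation-experienced regulatory T cells are described here, gene by gene, from polyadenylated RNA. They were taken as every protein-coding gene whose GENCODE M21 symbol begins with Ptpn and a number, Ptpr and a letter, or Dusp and a number, with Ptprc (CD45) left out. This gave 61 genes of 55536 in the gene tables, of which 22028 are protein-coding. They comprised 24 Dusp genes, 17 Ptpn genes and 20 Ptpr genes. One of the Ptpr genes, Ptprcap, encodes a protein that binds CD45 and is not itself a phosphatase, and 19 Ptpr genes remain without it. The cells were primary cells from male mice 7 weeks old, and per the labels they arose from activated regulatory T cells. The labels give 1 biological replicate sequenced as 2 technical replicates. These are library 2 and library 1, and the labels name no strain, treatment or second condition. All comparisons below are therefore between 2 libraries of 1 biosample. They do not measure spread between animals, and no test between conditions was possible.

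Tyrosine phosphatases remove phosphate from tyrosine and so oppose kinases such as Lck, which starts signalling at the T cell receptor. Receptor-type enzymes (Ptpr) cross the membrane, whereas non-receptor enzymes (Ptpn) lie inside the cell, some with domains that dock on phosphorylated receptors. Dual-specificity phosphatases (Dusp) act on both tyrosine and serine or threonine. Those called MAP kinase phosphatases switch off ERK, JNK and p38, and several of them are transcribed within minutes of receptor stimulation. In T cells several of them are known to limit signals from antigen and cytokine receptors.

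The feature that joins the family is the catalytic loop, in which a histidine and the catalytic cysteine are followed, after fixed gaps, by a glycine and an arginine. Codons for this pattern of 8 residues were found in frame in the longest coding sequence of 58 of the 61 genes, once in 49 and at 2 places in 9. Ptpra, Ptpre, Ptprd, Ptprf, Ptprs, Ptprk, Ptprm, Ptprt and Ptpru were the genes with 2 matches. These receptors are known for tandem phosphatase domains. The pattern was not found in Ptprcap, Dusp27 or Dusp28. Of the 36 members detected below, 34 held it. The loops of 5 abundant or changing members are shown first, from the GENCODE M21 transcripts on mm10, with the codons for histidine, cysteine, glycine and arginine in capitals.
Ptpn6 loop: CATTGCagcgctGGCatcggcCGC
Ptpn22 loop: CACTGCagtgccGGCtgcggaAGG
Dusp2 loop: CACTGCcaagctGGCatctctCGC
Dusp1 loop: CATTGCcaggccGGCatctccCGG
Dusp4 loop: CACTGCcaggccGGCatctccCGA
The Ptpn6 loop lies at chr6:124722063-124724964 on the minus strand and the Ptpn22 loop at chr3:103876730-103877320 on the plus strand, both interrupted by an intron. The loops of Dusp2 (chr2:127337616-127337639, plus strand), Dusp1 (chr17:26506592-26506615, minus strand) and Dusp4 (chr8:34818433-34818456, plus strand) are each unbroken. The cysteine is codon 455 in Ptpn6, 227 in Ptpn22, 261 in Dusp2, 258 in Dusp1 and 284 in Dusp4. The 2 loops of Ptpra, the most abundant receptor-type member, are at codons 469 and 759.
Ptpra loop, membrane-proximal: CACTGCagtgcaGGTgtagggCGC
Ptpra loop, membrane-distal: CACTGCagtgccGGGgcaggaCGG
These lie at chr2:130540642-130541310 and chr2:130549835-130552212 on the plus strand, each interrupted by an intron.

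GENCODE genes received 22036331 expected counts in library 2 against 26593267 in library 1, and the members took 0.393% of them in library 2 against 0.389% in library 1. The label of the cells was checked against marker genes. The 5 T cell markers summed to a TPM (a level corrected for transcript length and library depth) of 4134 in library 2 against 4172 in library 1. Foxp3, the lineage factor, had a TPM of 87.4 in library 2 against 87.3 in library 1, and all 6 regulatory T cell markers were detected. Of these 6, 1 was called higher in library 2 against 4 in library 1, Foxp3 among the 4. Of all genes tested, 46.4% were called higher in library 2 and 23.9% in library 1. The 6 summed to a TPM of 1101 in library 2 against 1265 in library 1. In a second deposited gene table, described below, 1 of the 6 was called higher in each library. The log2 ratio of Foxp3, library 2 over library 1, was -0.08, and -0.04 in that table. For Izumo1r it was -0.49, and 0.003 in that table. Transcripts of other cell types differed between the libraries. The 10 macrophage markers summed to a TPM of 94.1 in library 2 against 9.94 in library 1, where Mrc1, C1qc and Marco were at 0, and 9 of the 10 were called higher in library 2. The 8 erythroid and platelet markers summed to 96.5 in library 2 against 8502 in library 1, with 7 called higher in library 1. The 6 B cell markers summed to 115 in library 2 against 157 in library 1, with 1 called higher in library 2 and 4 in library 1. The 5 NK cell markers summed to 241 in library 2 against 160 in library 1, mostly Nkg7 (233 in library 2 against 153 in library 1). Cd8a and Cd8b1 summed to 13.5 in library 2 against 27.0 in library 1, and both were called higher in library 1. Of 6 proliferation markers, 1 was called higher in library 2 against 4 in library 1 (summed TPM 214 in library 2 against 266 in library 1). Pcna, not called, held most of that sum, with 147 in library 2 against 144 in library 1. Ccnb1 had 2.00 in library 2 against 26.3 in library 1. In bulk RNA, more cells of a type and more RNA per cell cannot be told apart.

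Members were counted as detected where TPM reached 1 in each library, and 36 of the 61 (59.0%) were, against 49.1% of all protein-coding genes. The level of the members spanned the whole range from 0 to near 1000 TPM. Library 2 had 43 members at a TPM of 1 or more and library 1 had 36, so 7 passed in library 2 only and none in library 1 only. Another 18 were under 1 in both. Protein-coding genes as a whole also leaned toward library 2, with a median TPM of 1.99 in library 2 against 1.24 in library 1. Of the 22028, 3546 had 0 counts in library 2 against 6631 in library 1. A small number of genes made up most of the family: the 10 most abundant phosphatases held 83.0% of the phosphatase TPM in library 2 against 81.8% in library 1, leaving Ptprcap out.

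**Figure D1:**
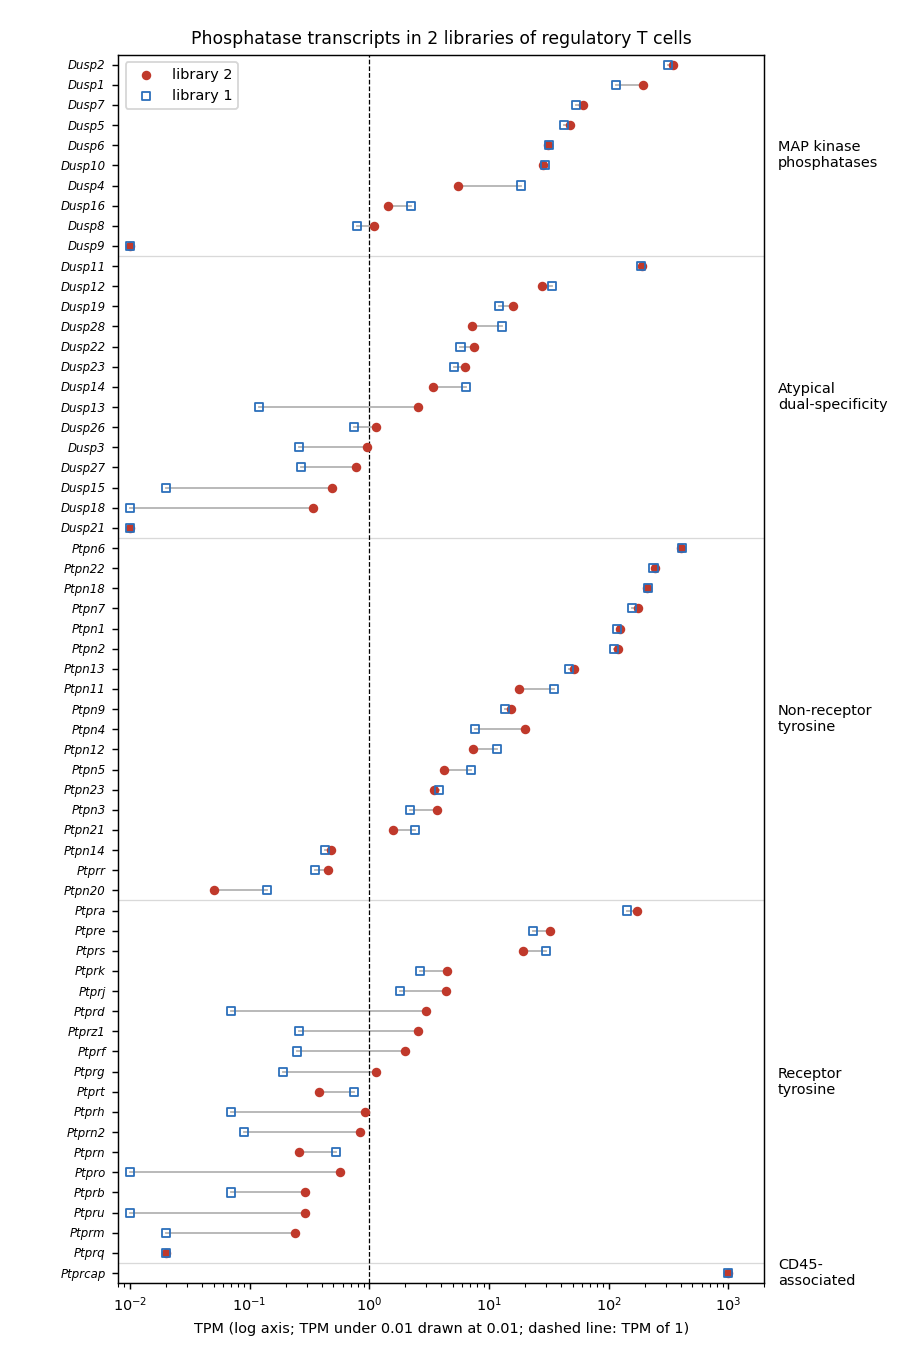
TPM of the 61 members in library 2 (filled circles) and library 1 (open squares) on a log axis. Members are grouped by class and ordered by mean TPM within each class. Values under 0.01 are drawn at 0.01, and a dashed line marks a TPM of 1. Ptprcap has the highest TPM, followed by Ptpn6, Dusp2, Ptpn22 and Ptpn18, each drawn in its own class. Most receptor-type members sit near or under 1 TPM with library 2 to the right of library 1.

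Counts were compared between the libraries with a 2-sided exact binomial test on expected counts, with Benjamini-Hochberg adjustment over all 24253 genes that had at least 10 counts. Ratios are library 2 over library 1 after scaling to library totals, so a positive log2 ratio means higher in library 2. Of the 56 members tested, 29 were called higher in library 2, where 46.4% of all genes tested were called, and 12 were called higher in library 1, where 23.9% of all genes were called. Among protein-coding genes the shares were 45.8% and 27.8%, in that order. The remaining 15 were not called. As shares of the members these counts lay close to those of all genes, and the test of so many reads called 70.3% of genes in one direction or the other. TMM factors in place of library totals add -0.11 to every log2 ratio, and DESeq2 size factors add -0.14, so that small positive ratios change sign. The median log2 ratio was 0.22 over the members and 0.23 over all genes tested. With TMM factors 8 members lost their call (Dusp2, Dusp5, Dusp8, Dusp19, Ptpn2, Ptpn7, Ptpn14 and Ptpra) and 6 others became called higher in library 1 (Dusp10, Dusp11, Ptpn1, Ptpn13, Ptpn22 and Ptprcap). A rule of size was also applied, on a log2 ratio at 1 or beyond. Of 40 members with at least 100 counts summed, 5 were 2-fold or more higher in library 2 and 2 in library 1. The shares over all 12603 genes with at least 100 counts were 9.03% for library 2 and 5.03% for library 1. The 5 were Ptprd, Ptprf, Ptprg, Ptpn3 and Ptprk, and the 2 were Dusp4 and Ptpn5, with Ptpn21 just short of the rule at a log2 ratio of -0.99.

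The difference between the libraries depended on abundance, among members as among other genes. In the 16 members with 10 to under 100 counts, 12 were higher in library 2 and none in library 1, and their median log2 ratio was 1.97. Protein-coding genes of the same count had a median of 2.41, with 64.4% called higher in library 2 and 11.8% in library 1. Of 18 members with 100 to under 1000 counts, 8 were higher in library 2 against 6 in library 1, with a median of 0.15. Protein-coding genes had the same median there, with 42.2% called higher in library 2 and 30.3% in library 1. In the 22 members with at least 1000 counts, 9 were higher in library 2, 6 in library 1, and the median was 0.02 against -0.01 for protein-coding genes, of which 35.2% were called higher in library 2 and 37.3% in library 1.

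**Figure D2:**
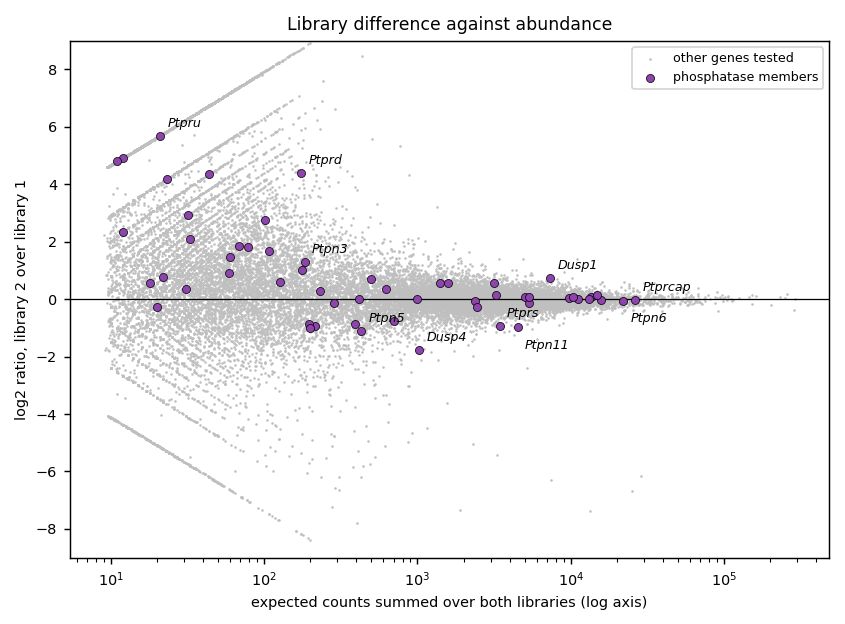
Log2 ratio of expected counts, library 2 over library 1, against the counts summed over both libraries (log axis) for all 24253 genes tested (grey) and the 56 members tested (purple). The members follow the cloud of other genes: most low-count members lie above 0, and above 1000 counts most lie near 0, with Dusp1 above it and Dusp4, Ptpn11 and Ptprs below.

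The SH2-domain phosphatases SHP-1 (Ptpn6) and SHP-2 (Ptpn11) bind phosphorylated inhibitory or growth factor receptors. Ptpn6 was the most abundant phosphatase of the family, with a TPM of 405 in library 2 against 409.5 in library 1 (chr6:124720707-124738714, minus strand). Its log2 ratio was -0.05 (adjusted p = 0.0247, exact binomial test), a difference that had the opposite sign in the small gene table, where the log2 ratio was 0.10 (adjusted p = 0.00929, exact binomial test). The small table is a second deposited table of whole-number counts per gene from another alignment and annotation of the same libraries. Ptpn11 was far lower and differed between the libraries, with a TPM of 17.7 in library 2 against 34.9 in library 1. These came from 1337 expected counts in library 2 against 3181 in library 1. It was 1.97-fold higher in library 1 (log2 ratio -0.98, 95% counting interval -1.07 to -0.89, adjusted p = 2.63e-101, exact binomial test), and -0.75 in the small table. Genes for receptors that can dock these enzymes were a list of 9, of which 4 were higher in library 2 against 5 in library 1. Cd5, which tunes T cell receptor signals, had a TPM of 455 in library 2 against 428 in library 1, and Sit1 had 184 in library 2 against 151 in library 1. Pdcd1, the checkpoint receptor that recruits SHP-2, had 57.1 in library 2 against 148 in library 1 (log2 ratio -1.39), and the collagen receptor Lair1 had 6.49 in library 2 against 3.61 in library 1 (2.16 on counts, 0.69 in the small table).

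The PEST-type phosphatases bind the kinase Csk, which restrains Src-family kinases. Ptpn22, which dephosphorylates Lck and Zap70, had a TPM of 244 in library 2 against 237 in library 1 and was not called (log2 ratio -0.02, interval -0.07 to 0.02), but TMM scaling gave -0.13 and a call higher in library 1. Ptpn18 had 209 in library 2 against 211 in library 1 (log2 ratio -0.12, called higher in library 1, with 0.00 and no call in the small table). Ptpn12 (PTP-PEST), a regulator of the cytoskeleton, had 7.34 in library 2 against 11.6 in library 1, which made it 1.68-fold higher in library 1 on counts. PTP1B (Ptpn1) and TCPTP (Ptpn2) dephosphorylate JAK kinases and STAT factors downstream of cytokine receptors. Ptpn1 had a TPM of 125 in library 2 against 117 in library 1 and was not called. Ptpn2 had 120 in library 2 against 111 in library 1 (log2 ratio 0.09), a call lost in the small table and turned to -0.02 and no call by TMM scaling.

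Among the tyrosine phosphatases that bind MAP kinases, the blood-cell enzyme Ptpn7 (HePTP) was the abundant one, with a TPM of 177 in library 2 against 156 in library 1 (log2 ratio 0.13 in both gene tables, but 0.02 and no call under TMM scaling). Ptpn5 (STEP), best known from neurons, had 4.22 in library 2 against 7.08 in library 1. It had 120 counts in library 2 against 312 in library 1. This was 2.15-fold higher in library 1 (log2 ratio -1.10, interval -1.42 to -0.80, adjusted p = 5.2e-13, exact binomial test), and the small table gave -1.15. Ptprr, the third of this class, had 16 counts in library 2 against 15 in library 1.

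Phosphatases with a FERM domain, which links proteins to the membrane, were uneven. Ptpn13 had a TPM of 50.9 in library 2 against 46.8 in library 1 and was not called. Ptpn4 had 20.1 in library 2 against 7.71 in library 1. Its counts, 875 in library 2 against 714 in library 1, differed 1.48-fold after scaling (log2 ratio 0.56, with 0.92 in the small table). Its longest transcript, Ptpn4-201, held 17.2% of the gene's TPM in library 2 against 43.6% in library 1, and a TPM of 3.46 in library 2 against 3.36 in library 1. Ptpn3 had 3.66 in library 2 against 2.17 in library 1 and was 2.43-fold higher in library 2 on counts (1.17 on the log2 scale in the small table), while Ptpn21 had 1.59 in library 2 against 2.43 in library 1 and was 2.00-fold higher in library 1 (small table -1.17). Ptpn14, a regulator of YAP in epithelial cells, stayed under 1 TPM in both. Of the remaining non-receptor genes, Ptpn9 had 15.2 in library 2 against 13.6 in library 1 (1.48-fold higher in library 2 on counts), Ptpn23 had 3.46 in library 2 against 3.85 in library 1, and Ptpn20 had 1 count in library 2 against 6 in library 1.

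The nuclear, inducible MAP kinase phosphatases Dusp1, Dusp2, Dusp4 and Dusp5 were all detected. Dusp2 (PAC-1), an enzyme first known from activated T cells, had a TPM of 347 in library 2 against 315 in library 1, the highest of the Dusp genes (chr2:127336159-127338376, plus strand). Dusp1 (MKP-1), which acts on p38 and JNK, had 195 in library 2 against 114 in library 1 (chr17:26505590-26562128, minus strand). Dusp5, which acts on ERK, had 47.3 in library 2 against 42.1 in library 1. These 3 were called higher in library 2. The log2 ratio of Dusp2 was 0.08 and turned to -0.03 with no call under TMM scaling, and that of Dusp5 was 0.15 with no call under TMM scaling or in the small table. Dusp1 stood apart at 0.75 (interval 0.68 to 0.82, adjusted p = 3.96e-106, exact binomial test), a 1.68-fold difference, and 0.48 in the small table. Dusp4 (MKP-2) went the other way, with a TPM of 5.53 in library 2 against 18.6 in library 1, from 202 counts in library 2 against 830 in library 1 (chr8:34807297-34819894, plus strand). It was 3.40-fold higher in library 1 (log2 ratio -1.76, interval -2.00 to -1.54, adjusted p = 3.82e-65, exact binomial test), and -1.45 in the small table. Dusp1 overlaps Ergic1 on the opposite strand, which held 1477 counts in library 2 against 2560 in library 1. Strand use in counting is not given in the sources used here, so reads of overlapping genes may not be told apart.

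The share of Dusp1 TPM in transcripts annotated with a retained intron was 75.2% in library 2 against 65.1% in library 1, and coding transcripts held 24.4% in library 2 against 34.9% in library 1. Counted over coding transcripts alone, Dusp1 had 1208 expected counts in library 2 against 1244 in library 1, a log2 ratio of 0.23. Over its retained-intron transcripts it had 3057 in library 2 against 1819 in library 1, a log2 ratio of 1.02. The gene-level difference of Dusp1 thus lay mostly in transcripts annotated with a retained intron.

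The promoter windows of the 3 inducible genes that were higher in library 2 are shown because these genes were called in the same direction and because CRE elements, which bind CREB after cAMP and calcium signals, are known from the Dusp1 promoter. They are RefSeq windows of 300 bases on GRCm38.p6, from 250 before to 50 after the start, on the gene's strand. Capitals mark the short CRE (TGACG, or CGTCA on the other strand) and the TATA motif (TATAA or TTATA). The windows are chr17:26508423-26508722 (minus) for Dusp1, chr2:127335909-127336208 (plus) for Dusp2 and chr19:53528895-53529194 (plus) for Dusp5.
Dusp1 promoter window: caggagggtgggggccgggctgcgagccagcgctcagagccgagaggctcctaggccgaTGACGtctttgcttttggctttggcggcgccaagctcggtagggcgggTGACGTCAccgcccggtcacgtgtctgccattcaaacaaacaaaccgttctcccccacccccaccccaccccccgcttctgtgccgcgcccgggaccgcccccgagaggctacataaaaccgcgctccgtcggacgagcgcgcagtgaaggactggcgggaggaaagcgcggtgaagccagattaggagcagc
Dusp2 promoter window: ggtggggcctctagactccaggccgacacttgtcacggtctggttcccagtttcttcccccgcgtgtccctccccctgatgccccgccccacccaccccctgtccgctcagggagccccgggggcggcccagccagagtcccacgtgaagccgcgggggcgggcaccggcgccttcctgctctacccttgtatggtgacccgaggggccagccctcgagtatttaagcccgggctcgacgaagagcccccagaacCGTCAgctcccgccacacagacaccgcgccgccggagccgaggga
Dusp5 promoter window: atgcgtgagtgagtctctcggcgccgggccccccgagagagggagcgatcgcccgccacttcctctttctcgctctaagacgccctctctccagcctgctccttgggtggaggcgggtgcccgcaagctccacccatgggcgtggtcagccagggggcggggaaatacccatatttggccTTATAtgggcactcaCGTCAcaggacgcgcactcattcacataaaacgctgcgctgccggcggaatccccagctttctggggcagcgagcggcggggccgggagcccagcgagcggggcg
The Dusp1 window held 1 full CRE (TGACGTCA, which reads the same on both strands and holds 2 overlapping short matches) and 3 short matches in all. Dusp2 held 1 short match and Dusp5 held 1 short match and 1 TATA motif. Windows were found for 49 members, 65 in all since some genes have several starts. The full CRE was in 5 of the 65 (7.69%), against 1.79% of all 32851 windows, and the short CRE in 36.9% against 20.8%. The GC box (GGGCGG or CCGCCC) was in 58.5% of member windows against 35.7% of all windows, and the TATA motif in 10.8% against 24.9%. These are matches of letters only, and a link between them and the calls was not tested. The calls of Dusp2 and Dusp5 were lost under TMM scaling, and no window was found for Dusp4.

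The cytoplasmic ERK phosphatases were Dusp6 and Dusp7. Dusp7 had a TPM of 60.6 in library 2 against 52.9 in library 1 and was not called. Dusp6, a feedback target of ERK, had nearly equal TPM, 31.25 in library 2 against 31.55 in library 1, but its counts, 997 in library 2 against 1438 in library 1, gave a log2 ratio of -0.26, called higher in library 1. Dusp9 had 0 counts in both libraries, which allows up to 3 counts, a CPM (a count scaled to library depth) of 0.136 in library 2 against 0.113 in library 1. Of the JNK and p38 phosphatases, Dusp10 had 28.1 in library 2 against 29.2 in library 1 and was not called. Dusp16 had 1.44 in library 2 against 2.25 in library 1 (log2 ratio -0.86, but -0.16 and no call in the small table), and Dusp8 had 1.10 in library 2 against 0.79 in library 1 (0.61, with 1.72 in the small table).

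Genes that act around these enzymes were read in the same test, in which 46.4% of all genes were called higher in library 2 and 23.9% in library 1. The ratios named as largest are those among called genes with at least 100 counts. Of 10 MAP kinases, 6 were higher in library 2, of which 2 had under 100 counts, against 1 in library 1. Mapk14 (p38 alpha) had a TPM of 128 in library 2 against 98.8 in library 1 (log2 ratio 0.31), and Mapk7 (ERK5) had 21.9 in library 2 against 11.3 in library 1 (0.83). Of 7 upstream MAP kinase kinases, 3 were higher in library 2 against 2 in library 1. Map2k2 had 141 in library 2 against 152 in library 1, and Map2k3 had 71.0 in library 2 against 89.5 in library 1. The largest ratios in that list were Map2k6 at 0.63 and Map2k5 at 0.51. Of 7 Sprouty and Spred genes, which are inhibitors of the ERK route, 0 were higher in library 2 against 3 in library 1. Spred1 had 1.54 in library 2 against 6.66 in library 1 (log2 ratio -2.12, with -2.22 in the small table), and Spry1 had 19.9 in library 2 against 29.6 in library 1 (-0.59).

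Kinases and adaptors of the T cell receptor, the counterparts of Ptpn6 and Ptpn22, were detected for 10 of 10 genes, with 3 higher in each library. Lck had a TPM of 1237 in library 2 against 1220 in library 1, and Lat had 673 in library 2 against 682 in library 1. The largest ratios were those of Pag1 at 0.47 and Syk at 0.43. Of 8 JAK and STAT genes, 1 was higher in library 2 against 4 in library 1, but 3 against 1 in the small table. Jak1 had a TPM of 492 in library 2 against 525 in library 1. Tyk2 at 0.42 and Stat5a at -0.25 had the largest ratios. Other genes of the phosphatase superfamily, outside the symbol rule, were 21 gene records, with 9 higher in library 2 against 8 in library 1. Ptp4a2 had 343 in library 2 against 341 in library 1, and Ptp4a3 had 146 in library 2 against 136 in library 1. Among called genes with at least 100 counts, Ptpdc1 at 1.40 and Cdc14b at 0.88 had the largest ratios, and Cdc14b was -0.31 in the small table.

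The atypical dual-specificity genes lack the MAP kinase docking domain, and some act on substrates other than MAP kinases. Dusp11, which removes phosphates from RNA 5′ ends, was the abundant one, with a TPM of 189 in library 2 against 186 in library 1, and was not called. Dusp12 had 27.9 in library 2 against 33.8 in library 1 and was not called either. Dusp19 had 15.8 in library 2 against 12.2 in library 1 (log2 ratio 0.34, a call lost at 0.23 under TMM scaling) and overlaps Nup35 on the same strand, which held 650 counts in library 2 against 861 in library 1. Dusp28, without the loop pattern, had 7.17 in library 2 against 12.8 in library 1 (-0.85, with -1.16 in the small table), and Dusp14, an inhibitor of T cell receptor signalling, had 3.38 in library 2 against 6.42 in library 1 (-0.92, with -0.70 in the small table). Dusp22, which inactivates Lck, had 7.55 in library 2 against 5.78 in library 1, and Dusp23 had 6.34 in library 2 against 5.14 in library 1, neither called. The other 7 stayed under a TPM of 1 in library 1. Among them Dusp13 had 22.35 counts in library 2 against 1 in library 1 (log2 ratio 4.20, interval 2.10 to 10.1), Dusp18 had 12 in library 2 against 0 in library 1, which is at least 4.83-fold higher in library 2, and Dusp21 had 0 in both. Dusp3 and Dusp27 were called higher in library 2, Dusp26 had 10 counts in library 2 against 8 in library 1, and Dusp15 had 6 in library 2 against 1 in library 1. In the small table Dusp18 had 0 counts in both libraries, and Dusp3 had 1 in library 2 against 0 in library 1.

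Ptprcap, the partner of CD45, had the highest TPM of all members, 989 in library 2 against 1001 in library 1, which is the 99.2 percentile of detected protein-coding genes. It was not called (log2 ratio -0.04, adjusted p = 0.0534, exact binomial test), and the small table gave 0.15. It overlaps Coro1b on the same strand, which held 6612 counts in library 2 against 8412 in library 1. Of the 19 receptor-type phosphatases, 5 were detected, 14 were called higher in library 2 and 1, Ptprs, was higher in library 1. Most of the 19 had under 100 counts. The other 8 had at least 100 counts, and all of these but Ptprs were called higher in library 2. Calls higher in library 2 made up 46.4% of all genes tested. Among protein-coding genes they made up 64.4% with 10 to under 100 counts, 42.2% with 100 to under 1000 and 35.2% with 1000 or more.

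Ptpra and Ptpre are close relatives with short outer domains that act on Src-family kinases. Ptpra had a TPM of 171 in library 2 against 143 in library 1, a log2 ratio on counts of 0.06 that turned to -0.05 with no call under TMM scaling. Ptpre had 32.1 in library 2 against 23.5 in library 1 (log2 ratio 0.56, interval 0.46 to 0.67, adjusted p = 8.55e-27, exact binomial test), with 0.25 in the small table. The retained-intron share of Ptpra TPM was 24.1% in library 2 against 12.8% in library 1, and its coding transcripts alone had a log2 ratio of -0.01.

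The LAR class carries immunoglobulin and fibronectin domains and is known from axon growth and cell contact. Ptprs, its member with a known function on plasmacytoid dendritic cells, had a TPM of 19.2 in library 2 against 30.1 in library 1. It had 1036 counts in library 2 against 2416 in library 1. It was 1.93-fold higher in library 1 (log2 ratio -0.95, interval -1.06 to -0.84, adjusted p = 2.2e-73, exact binomial test), and -0.88 in the small table. Ptprd and Ptprf went the other way from low levels. Ptprd had 166 counts in library 2 against 9 in library 1, 22.3-fold higher in library 2, but 31 counts in library 2 against 17 in library 1 in the small table (log2 ratio 1.03). Ptprf had 87 in library 2 against 15 in library 1 (log2 ratio 2.77, with 3.91 in the small table). Of the 6 dendritic cell markers, 1 was higher in library 2 against 2 in library 1 (summed TPM 6.03 in library 2 against 7.56 in library 1), and Siglech, a plasmacytoid marker, had a TPM of 0.46 in library 2 against 1.35 in library 1. The part of these cells in the Ptprs difference was not tested.

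Other receptor-type members were low. Ptprk had a TPM of 4.43 in library 2 against 2.66 in library 1. It was 2.03-fold higher in library 2 on counts, with a log2 ratio of 0.69 in the small table. Its retained-intron transcript Ptprk-211 held 56.2 counts in library 2 against 0 in library 1, and Ptprk-209 held 0 in library 2 against 11.6 in library 1. The longest coding transcript, Ptprk-201, held 33.7 in library 2 against 38.7 in library 1. Ptprj (CD148), which acts on Src-family kinases in blood cells, had a TPM of 4.41 in library 2 against 1.81 in library 1 (1.62-fold higher in library 2 on counts). Ptprg had 78 counts in library 2 against 29 in library 1, but 25 in library 2 against 0 in library 1 in the small table, and Ptprz1 had 59 in library 2 against 20 in library 1 (49 in library 2 against 2 in library 1 in the small table). Ptprh had 28 in library 2 against 4 in library 1, and Ptprn2, of dense-core vesicles, had 42 in library 2 against 2 in library 1 (log2 ratio 4.36, interval 2.72 to 7.76). Against 0 counts in library 1, Ptpru had 21 in library 2, at least 8.45-fold higher, and Ptpro had 11, at least 4.42-fold higher. Ptpro had 0 counts in both small tables. Ptprt had 26 counts in library 2 against 7 in library 1, while its TPM was 0.38 in library 2 against 0.75 in library 1, so count and TPM gave opposite orders. The small table had 9 counts of Ptprt in each library and no call. Ptprm had 10 in library 2 against 2 in library 1. Ptprn, Ptprb and Ptprq were not called or not tested. Among macrophage, endothelial, and stromal and epithelial markers, 9 of 10, 4 of 5 and 5 of 6 genes were called higher in library 2. The share was 46.4% of all genes tested and 64.4% of protein-coding genes with 10 to under 100 counts. Pecam1 (TPM 76.4 in library 2 against 83.2 in library 1) and Epcam (5.43 in library 2 against 9.84 in library 1) were called higher in library 1. Each had the highest TPM of its list, and the endothelial list summed to 80.6 in library 2 against 83.2 in library 1. The part of macrophages, endothelium, stroma and epithelium in the low receptor-type values was not tested.

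**Figure D3:**
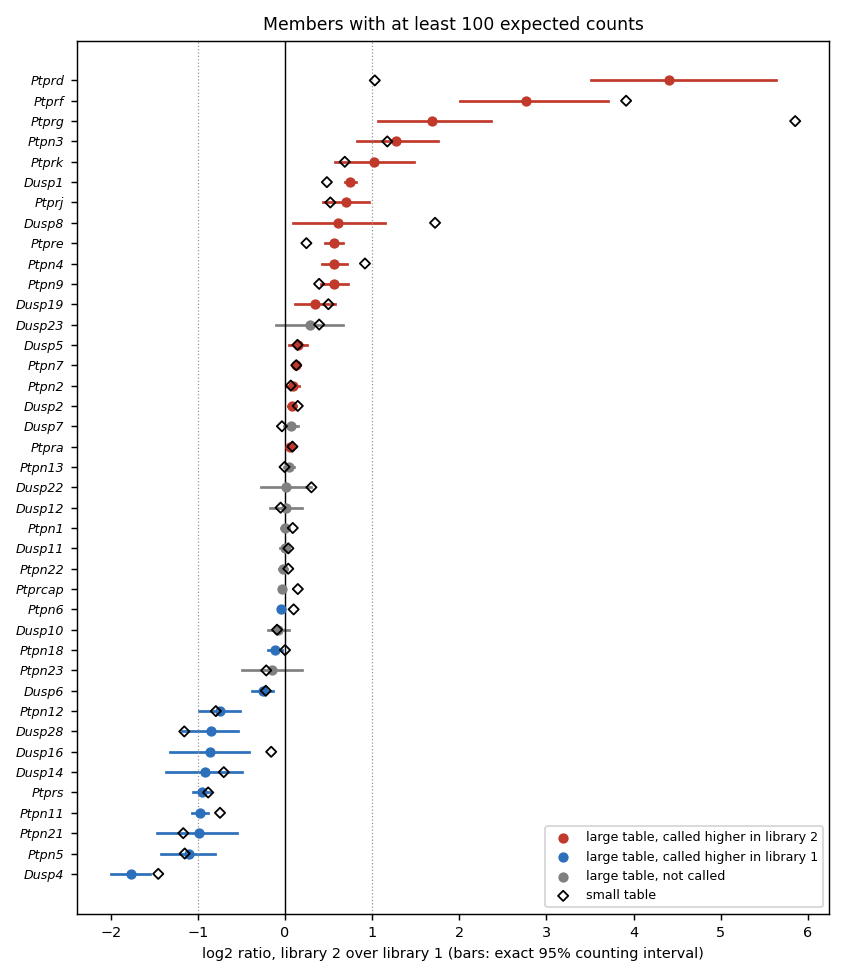
Log2 ratio, library 2 over library 1, of the 40 members with at least 100 expected counts, with exact 95% counting intervals and colour by call, beside the ratio in the small gene table (open diamonds). Dusp4 at -1.76 and Ptpn5, Ptpn21, Ptpn11 and Ptprs near -1 lie left of 0 in both tables, while Ptprd at 4.40 lies much closer to 0 in the small table.

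Of the 41 members called in the large table, 38 could be tested in the small table, and 30 of them were called there with the same sign. Ptpn6 and Ptpn18 were the 2 with the opposite sign. Dusp3, Dusp18 and Ptpro held fewer than 10 counts in the small table and were not tested there. Of all genes tested in the small table, 32.2% were called higher in library 2 and 22.1% higher in library 1, and 24 members were called higher in library 2 against 11 in library 1.

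The 20 members with a mean TPM of at least 20 were compared by transcript. For 18 of the 20 the leading transcript was shared by the libraries, the exceptions being Dusp1 and Dusp12. The most abundant transcript held a median of 68.0% of the gene's TPM in library 2 against 66.1% in library 1. Dusp5 and Dusp10 had 100% in a single transcript. A coding Ptpn18 transcript of 414 bases held 57.2% of Ptpn18 TPM in library 2 against 54.4% in library 1 but 25.5% of its counts in library 2 against 23.0% in library 1, since short transcripts weigh more per count in TPM. In Dusp11 the leading transcript, Dusp11-207, is annotated for nonsense-mediated decay and held 33.0% in library 2 against 33.2% in library 1. In Ptpn22 the coding transcript Ptpn22-201 held 47.2% in library 2 against 50.9% in library 1, and the decay transcript Ptpn22-204 held 23.7% in library 2 against 24.3% in library 1. For Dusp6, Dusp6-201 held 72.1% in library 2 against 100% in library 1.

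Retained-intron transcripts took a larger share of TPM in library 2 in 10 of the 11 members that had any, Dusp11 being the exception. The same direction was seen in 57.4% of the 4407 protein-coding genes at that level that had any, where the median share was 13.2% in library 2 against 11.9% in library 1. In Ptpn6 the share was 7.52% in library 2 against 3.73% in library 1, in Dusp2 24.6% in library 2 against 20.8% in library 1, in Ptpn22 27.9% in library 2 against 24.8% in library 1, and in Ptprs 27.9% in library 2 against 23.3% in library 1. For Ptpn11 and Ptprs the coding transcripts alone gave log2 ratios of -0.98 for Ptpn11 and -0.99 for Ptprs.

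**Figure D4:**
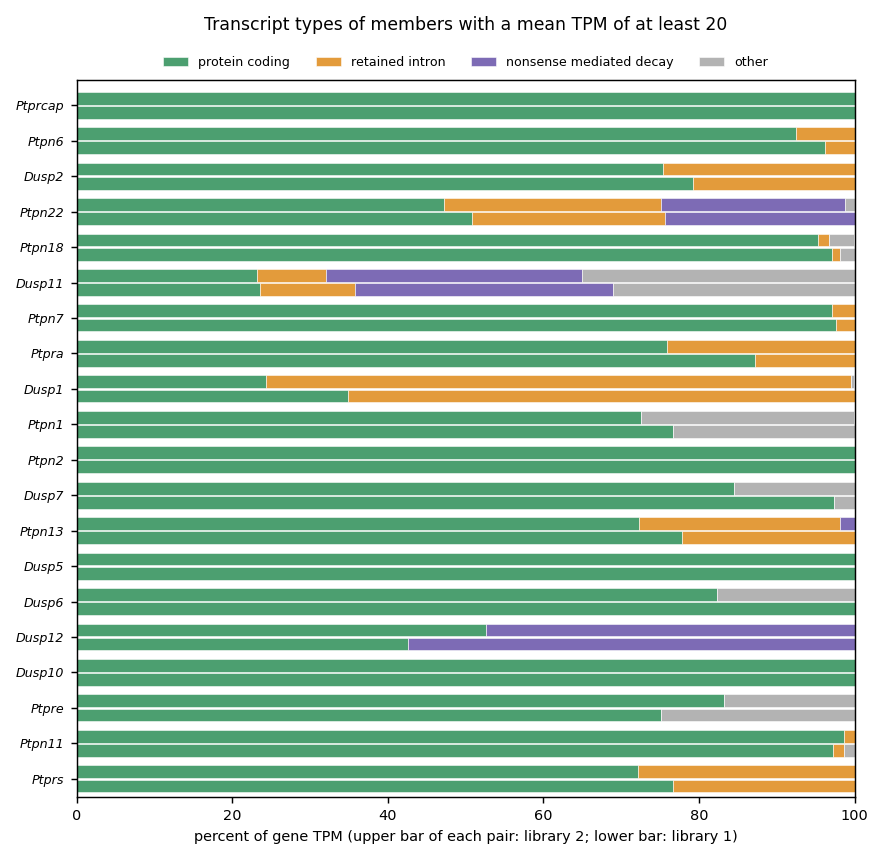
Percent of each gene's TPM in coding, retained-intron, nonsense-mediated decay and other transcripts for the 20 members with a mean TPM of at least 20, with library 2 as the upper bar and library 1 as the lower bar of each pair. Dusp1 is mostly retained-intron TPM in both libraries, Dusp11 and Dusp12 hold large decay shares, and Ptprcap, Ptpn2, Dusp5 and Dusp10 are wholly coding.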

How the data were processed

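Polyadenylated RNA of 1 biosample was sequenced as 2 technical libraries, which form 1 group. The large gene tables and the transcript tables hold expected counts, TPM and FPKM, which the authors derived from transcriptome alignments (mm10, GENCODE M21), per the deposited description. TPM and FPKM are levels per effective length, per the file headers. Per the file headers, the transcript tables also give the percent of a gene's TPM that each transcript takes. Whole-number counts stand in the small gene tables, which the authors made from mm10 alignments and GENCODE M4, per the deposited files' description. Strand use, aligner, quantifier and any removal of duplicates were not given in the sources used here.

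The members, the gene lists and the tests were chosen with earlier results of these data known. Values are given for every member at a mean TPM of at least 20, for the 4 highest of each class and for the 8 called members with at least 100 counts and the largest ratios in each direction. Of the pathway lists, the 2 highest genes and the 2 with the largest ratios among called genes with at least 100 counts were named, and other genes were named after their values were seen. Some genes of these lists that the rule selects are not reported here.

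All 55536 GENCODE gene identifiers of the large tables were found in the M21 annotation. Rows without a gene identifier held 0.235% of counts in library 2 and 0.201% in library 1 and were left out. Library 2 held 22036331 expected counts and library 1 held 26593267, and the small tables held 6972139 and 7911181. Rounded expected counts were tested per gene with a 2-sided exact binomial test (scipy 1.17.1) against library 2's share of all counts, for genes holding at least 10 counts, with Benjamini-Hochberg adjustment and calls at an adjusted p under 0.05. The test compares these 2 libraries only. The test was checked on simulated data that held counting error only, so the check does not cover other differences between the libraries. Log2 ratios were taken after adding 0.5 counts. Folds are ratios of scaled counts, and a fold against 0 counts uses 3 counts in that library as a floor. Intervals (95%, Clopper-Pearson) and floors cover counting error only, since PCR copies are not independent. Alternatives were TMM factors (edgeR 4.0.16), DESeq2 1.42.0 size factors, the small table, other thresholds and pseudocounts, posterior mean values, FPKM and each library alone.

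The catalytic loop was searched in the longest coding sequence of each gene in the M21 transcripts, and promoters came from RefSeq windows (GRCm38.p6).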

Additional observations from a re-analysis of the deposited data

How the results depend on the processing

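The number of members detected was 36 to 43 with each library alone and kept within 1.5 times at TPM thresholds of 0.1, 0.5 and 5, with FPKM and in the small table. Of the counts of calls, members higher in library 2 numbered 17 with at least 100 counts summed, fewer because fewer genes are tested. Members higher in library 1 numbered 20 with DESeq2 size factors, and members 2-fold apart numbered 11 with DESeq2 size factors and 4 on TPM + 1. The median log2 ratio of members was 0.11 with TMM factors, 0.0714 with DESeq2 size factors and 0.0278 with at least 100 counts summed. With TMM factors 8 of 56 single members changed sign, 3 without a call in either setting (Dusp7, Dusp12 and Dusp22) and 5 with one: Dusp2 (-0.0277), Ptpn1 (-0.11), Ptpn13 (-0.0675), Ptpn2 (-0.0211) and Ptpra (-0.0466). With DESeq2 size factors 9 did, the same 3 without a call and 6 with one: Dusp2 (-0.0634), Ptpn1 (-0.14), Ptpn13 (-0.10), Ptpn2 (-0.0569), Ptpn7 (-0.0157) and Ptpra (-0.0824). Of these, Dusp2 and Ptpra were called in both settings, higher in library 2 with library totals and higher in library 1 with DESeq2 size factors. In the small table, of 53 members, 10 did, 5 without a call in either table (Dusp7, Dusp11, Dusp12, Ptpn13 and Ptpn22) and 5 with one: Dusp26 (-1.52), Ptprr (-1.57), Ptpn18 (7.01e-05), Ptpn6 (0.10) and Ptprcap (0.15). Calls were lost for 8 members and gained for 6 with TMM factors, 6 and 6 with DESeq2 size factors, and 7 and 3 in the small table. The cause of the differences between the gene tables was not tested. With 5 counts added, posterior mean counts or at least 100 counts summed, no single member changed sign or call, and without a filter on low counts Ptpn2 and Ptpra lost their call. No paired analysis was possible because the labels give 1 group only. Depth limits the low members: below 100 counts the intervals span several-fold, and 1 biosample gives no spread between animals.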
